A study of Homo sapiens with 12 samples.

Results

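DNA replication and S phase genes were followed through the development of lapatinib resistance in BT474 cells. The set was a list of 49 gene symbols, matched by symbol to the expression table, and it was not chosen by a threshold on any value. It was chosen with earlier results of these data known, so its counts describe the set and are no independent test. All 49 were among the 26485 genes listed and all 49 passed the filter on low values that left 13794 genes for testing. They fall into 9 roles, which are origin licensing (11 genes), helicase activation and firing (8), polymerases and primase (7), the sliding clamp with its loader and Okazaki fragment joining (7), fork protection (4), nucleotide synthesis (4), chromatin copying (3), licensing destruction with an S phase protease (2) and E2F factors (3). BT474 is an established HER2-positive breast cancer cell line of luminal type, and lapatinib is a kinase inhibitor of HER2 and EGFR. Messenger RNA was sequenced from 3 libraries each of untreated cells (Control, day 0), drug-tolerant persister cells (DTP, day 9), drug-tolerant expanded persister cells (DTEP, month 6) and long-term resistant cells (LR, labelled Resistant, month 9). All groups carry the wild-type label of the same line, and the treated groups received 1 µM lapatinib every 3 days. The treatment label of the Control libraries also reads lapatinib at 1 µM, and they were taken as untreated because their titles say Control and day 0. Replicates were called technical in one place of the study and parallel plates in another, so n counts libraries and p-values may measure technical spread only. The groups follow each other in time, so drug state and time in culture cannot be told apart.

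As background, a cell licenses its origins in G1 by loading the ring-shaped MCM2 to MCM7 helicase onto DNA, with the help of the origin recognition complex, CDC6 and CDT1. On entry into S phase the kinase CDC7 with its subunit DBF4, together with cyclin-dependent kinases, turns the loaded ring into an active helicase by adding CDC45 and the GINS complex, and the polymerases, the clamp PCNA and the enzymes that make deoxynucleotides then act at the fork. Most of these genes are switched on together in late G1 by E2F transcription factors, which the retinoblastoma protein holds back in arrested cells. In HER2-driven breast cells, growth signals from the receptor feed into that switch through cyclin D.

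The promoters of the set shared short letters that the choice of the genes did not use. RefSeq promoter windows on GRCh38.p14, each reaching from 250 bases before to 50 bases after an annotated start, were matched by gene ID for 43 of the 49 genes, in 56 windows. The unmatched genes were MCM4, MCM5, GINS4, POLD3, FAM111B and E2F8. The E2F core was searched on both strands as the letters TTCCCGC, the letters TTGGCGC, the letters TTGCCGC or the letters TTCGCGC, and matches that overlap each other were each counted. It was present for 37 of the 43 genes (86.0%), and for 24.7% of the 10688 tested genes that have a window. Counted by window, it was in 40 of 56 (71.4%), against 13.0% of all 35116 windows. The genes without a match were CDC45, DBF4, FEN1, MCM10, ORC6 and POLD1. The CCAAT letters stood in 57.1% of the windows of the set and 34.6% of all windows, and the letters TTTGAA, the core of the CHR element of G2 and M phase genes, in 3.57% and 15.2%. The windows of the set were also richer in G and C, with a median of 65.8% against 58.7% over all windows, and its part in these shares was not tested. A match is a run of letters and not a bound site.

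A total of 7 stretches, from genes picked by name, are shown as examples with the matches that lie ahead of the start. Among them is POLA1, the gene whose level did not return in DTEP cells. ORC1, CDT1 and MCM6 share the origin licensing role, and further genes of the set also had matches ahead of the start. Each is written 5′ to 3′ on the strand of its gene, with the E2F core letters in capitals, and overlapping matches run together as 1 block. They lie at chr1:52404424-52404465 (minus strand), chr16:88803734-88803788 (plus strand), chr2:135876503-135876614 (minus strand), chr20:5126655-5126701 (minus strand), chrX:24693761-24693824 (plus strand), chr1:212035620-212035747 (plus strand) and chr20:33686386-33686438 (minus strand), in the order shown.
ORC1: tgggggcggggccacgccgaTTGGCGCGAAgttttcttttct
CDT1: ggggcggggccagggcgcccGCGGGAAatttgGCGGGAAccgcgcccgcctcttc
MCM6: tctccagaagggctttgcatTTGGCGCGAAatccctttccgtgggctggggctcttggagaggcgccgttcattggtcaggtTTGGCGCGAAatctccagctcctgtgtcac
PCNA: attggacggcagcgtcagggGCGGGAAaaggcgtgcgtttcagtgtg
POLA1: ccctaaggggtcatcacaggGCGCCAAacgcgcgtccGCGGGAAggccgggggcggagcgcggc
DTL: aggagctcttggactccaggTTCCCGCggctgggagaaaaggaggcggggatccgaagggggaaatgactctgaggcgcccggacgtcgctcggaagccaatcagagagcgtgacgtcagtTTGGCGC
E2F1: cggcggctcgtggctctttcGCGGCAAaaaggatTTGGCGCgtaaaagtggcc

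In ORC1, a subunit of the origin recognition complex, a pair of overlapping matches began 22 and 19 bases before the start. MCM6, a subunit of the helicase ring, held the same joined letters at 2 places, the farther beginning 151 bases and the nearer 89 bases before the start. CDT1 had 2 matches, E2F1 2, DTL 2 and PCNA 1 ahead of the start. POLA1 had 2 ahead of the start, at 137 and 120 bases, and another match 17 bases after it. Over the set, 48 of the 64 matches began within 100 bases before the start or after it. The median log2 change between DTP and Control was -2.29 in the 37 genes with a match and -2.79 in the 6 without.

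Libraries differed in ways that touch every result on DTEP and LR cells. Depth was 16383363 to 25030482 assigned reads per library, and 1 read was worth 0.0412 to 0.0576 on the normalised scale. The 49 genes took 0.637 to 0.651% of the reads of Control libraries, beside 0.154 to 0.158% for DTP. In DTEP libraries 1 to 3 they took 0.669%, 0.747% and 0.438%, and in LR libraries 1 to 3 they took 0.293%, 0.138% and 0.437%. LR library 2 was the lowest LR library for 49 of 49 genes, and for 37.5% of all genes tested. In it, 23 of the 49 stood below the highest DTP library and 18 below the lowest. DTEP library 3 was the lowest DTEP library for 43 of the 49, and for 47.1% of all genes tested. The median log2 difference of the set from the Control mean was -0.97, -2.54 and -0.51 in LR libraries 1 to 3, 0.25, 0.32 and -0.45 in DTEP libraries 1 to 3, and between -2.39 and -2.21 in the DTP libraries. The spread between libraries of a group followed this, where the median SD per gene on the log2 scale was 0.04 for Control, 0.16 for DTP, 0.46 for DTEP and 0.96 for LR, against 0.07, 0.17, 0.33 and 0.20 over all genes tested. Luminal markers were present throughout, with all 8 detected, and their sum ranged from 10925 to 11643 among Control libraries, from 13185 to 15556 among DTP, from 5182 to 6745 among DTEP and from 4657 to 6240 among LR libraries. All 3 leukocyte markers stayed at or under 3 reads in every library. Of the 3 basal markers 2 did so in each group, and the sum of the 3 reached 5.57 in Control and 1.21 in DTP libraries at most, 28.8 in DTEP and 65.6 in LR, with KRT5 at 0 in all Control and DTP libraries and KRT14 at 0 in all DTEP and LR libraries. The sum of the 5 fibroblast markers was higher in the later groups. It ran from 51.1 to 61.7 among Control and from 48.1 to 59.3 among DTP libraries. Among DTEP it ran from 79.9 to 121.3 and among LR from 98.4 to 130.4. In each of the Control, DTP and LR groups 4 of the 5 stayed at or under 3 reads in every library, and 3 did so in DTEP. These sums therefore rest on few genes, with DCN at 0 in all Control, DTP and DTEP libraries. The sum of the 3 endothelial markers was lower in the treated groups, from 8.14 to 8.85 among Control and from 2.19 to 2.61 among DTP libraries. Among DTEP it ran from 0.165 to 0.431 and among LR from 0.127 to 0.332. Of these 3, 1 stayed at or under 3 reads in all DTP libraries, 2 in DTEP and 3 in LR. The part of any of these differences in the results was not tested.

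**Figure D1:**
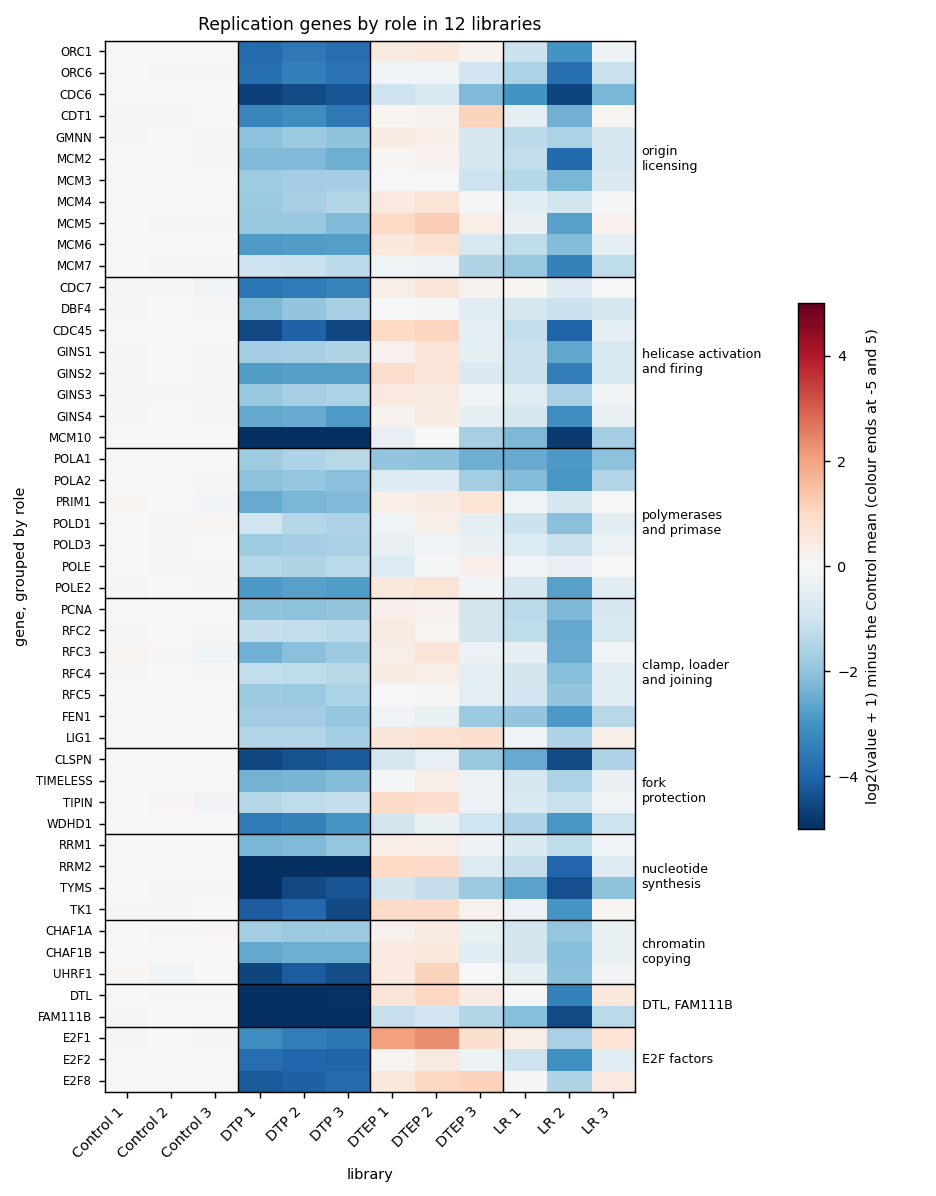
Heat map of the 49 replication and S phase genes (rows, grouped by role) in the 12 libraries (columns), as log2(value + 1) minus the mean of the Control libraries, with colours that end at -5 and 5. All 3 DTP columns are blue for all 49 genes, DTEP columns are near the Control level except for rows such as POLA1 and CDC6, and the column of LR library 2 is the bluest of the LR columns.

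**Figure D2:**
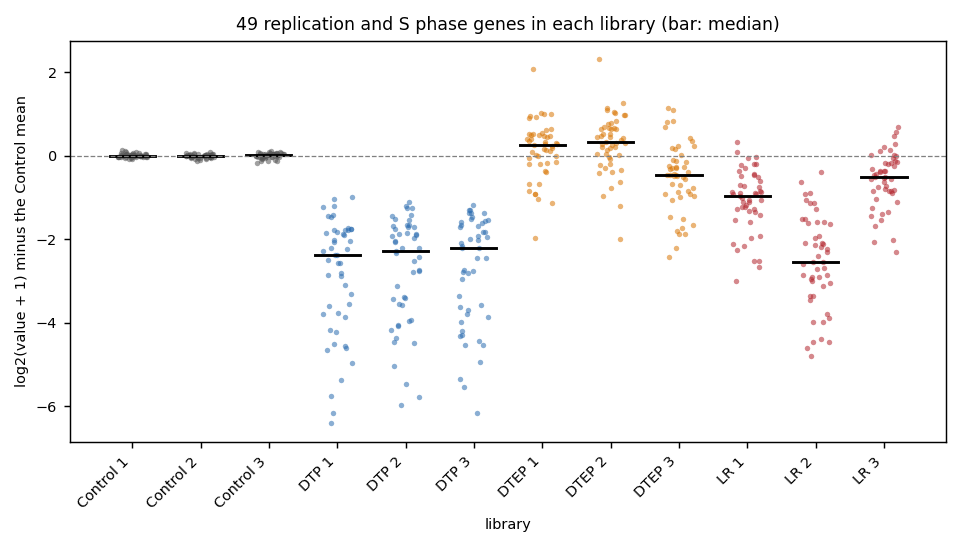
Each point is 1 of the 49 genes in 1 library, as log2(value + 1) minus the Control mean of that gene, and the bar is the median of the 49. The medians were between -2.39 and -2.21 in DTP, at 0.25, 0.32 and -0.45 in DTEP libraries 1 to 3, and at -0.97, -2.54 and -0.51 in LR libraries 1 to 3.

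Entry into the drug-tolerant state was compared first. All 49 genes were lower in DTP than in Control cells at an adjusted p below 0.05 by limma, where 28.8% of all genes tested were. Of the 49, 31 also passed an absolute log2 change of 2, the study's own limit, where 3.9% of all genes were called lower. The median log2 change of the 49 was -2.29, beside -0.01 over all genes tested. The fall ran from RRM2, the small subunit of ribonucleotide reductase, at -6.12 (SE 0.69, adjusted p = 3.01e-05), to MCM7, a subunit of the helicase ring, at -1.15 (SE 0.45, adjusted p = 0.0464). For every one of the 49 the highest DTP library lay below the lowest Control library, which held for 39.6% of all genes. In ratios of group means the set stood from 2.22-fold (MCM7) to 93.9-fold (UHRF1) lower, with a median of 4.95-fold. In bulk RNA, fewer cells in S phase and less of these transcripts in each cell cannot be told apart. By adjusted p, 48 or 49 passed under each of the other settings tried, and only MCM7 was lost, which passed in 11 of its 23 alternatives.

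Regrowth in the drug was the next comparison, and it shares the DTP libraries with the first. Between DTP and DTEP cells, 47 of the 49 genes rose at an adjusted p below 0.05 (35.7% of all genes tested), and 31 were called higher past a log2 change of 2 (8.13% of all genes). The median log2 change was 2.55, beside 0.08 over all genes. RRM2 rose most, by a log2 of 6.55 (SE 0.69, adjusted p = 4.98e-06). The genes that did not pass the test as higher were POLA1, the catalytic subunit of the polymerase that starts each DNA strand, with a log2 change of -0.56 (SE 0.20, adjusted p = 0.0237), and MCM7 at 0.47 (SE 0.45, adjusted p = 0.364). The mean of MCM7 was 415 in DTEP and 277 in DTP cells, and without DTEP library 3 its log2 change was 0.89 (adjusted p = 0.0808). Without DTEP library 3 and LR library 2, a choice made after the values were seen, MCM7 passed, at 0.89 (adjusted p = 0.000591). POLA1 was lower in all 3 DTEP libraries than in any DTP library, but the change was small and was past the threshold in 20 of 23 alternatives. Without DTEP library 3 the change of POLA1 was -0.41 (adjusted p = 0.0771). For 46 of the 49 every DTEP library lay above every DTP library (34.5% of all genes). Without DTEP library 3, 37 genes were called higher in place of 31.

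Against Control, the median of the set in DTEP cells was near the starting level, but the libraries fell on different sides. In DTEP libraries 1 and 2, 31 and 36 of the 49 lay above the highest Control library, and 15 and 12 below the lowest. In DTEP library 3, 11 lay above and 37 below. The median log2 change between DTEP and Control was 0.09, from -2.13 for POLA1 to 1.73 for E2F1. By adjusted p, E2F1 was higher (29.5% of all genes tested were) and CDC6, POLA1, POLA2 and TYMS were lower (28.7% of all genes). POLA1 was the one gene called past a log2 change of 2, where 6.2% of all genes were called lower. Without DTEP library 3 it was -1.98 (adjusted p = 5.22e-06), just inside that limit and so not called, and the median of the set was 0.30. For 10 genes, namely ORC1, CDT1, MCM5, CDC7, PRIM1, LIG1, TK1, DTL, E2F1 and E2F8, every DTEP library lay above every Control library (33.2% of all genes). For 11, namely ORC6, CDC6, MCM7, POLA1, POLA2, POLD3, FEN1, CLSPN, WDHD1, TYMS and FAM111B, every DTEP library lay below (32.5%). The counts by adjusted p depended on the libraries in the fit. With only the 6 libraries compared they were 7 higher and 7 lower, for which shares over all genes were not counted. Without DTEP library 3 they were 3 higher (33.1% of all genes) and 1 lower (30.6%). Without DTEP library 3 and LR library 2 they were 21 higher (35% of all genes) and 7 lower (32.1%).

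Long-term resistant cells came last. All 49 genes had a lower mean of log2 values in LR than in DTEP cells, with a median log2 change of -1.33 beside -0.07 over all genes. By limma 0 of the 49 were called past a log2 change of 2, where 0.457% of all genes were called lower, while 47 of the 49 had an unadjusted p below 0.05 (20.7% of all genes). By edgeR 0 were called and by DESeq2 1. Without DTEP library 3 limma called 9 (1.55% of all genes), and without LR library 3 it called 17. By adjusted p alone 15 fell, where 4.31% of all genes did. They were ORC1, CDC6, GMNN, MCM4, DBF4, GINS1, PRIM1, POLE2, PCNA, RFC4, LIG1, TIMELESS, TIPIN, TYMS and E2F1. For 26 genes every LR library lay below every DTEP library (13.4% of all genes). The number by adjusted p was unstable. It was 43 without DTEP library 3, where the share over all genes also rose, to 28.1%. Without LR library 3 it was 43 as well. The share over all genes was not counted for that fit, so its 17 and 43 cannot be set against all genes. The number by adjusted p was from 0 to 3 when any other library was left out. It was 0 when only the 6 libraries compared were fitted. By edgeR it was 20 and by DESeq2 38. Without LR library 2 it was 0, the median was -0.80, and 48 genes kept a negative sign. Without both DTEP library 3 and LR library 2 it was 43, beside 27.4% of all genes, with a median of -1.09.

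Against Control, all 49 genes were lower in LR cells in sign, 35 fell at an adjusted p below 0.05 (32.6% of all genes) and 10 were called past a log2 change of 2 (7.8% of all genes). This comparison shares its Control libraries with the first and its LR libraries with the comparison above. The 10 were ORC6, CDC6, MCM7, MCM10, POLA1, POLA2, FEN1, CLSPN, TYMS and FAM111B. For 39 genes every LR library lay below every Control library (39.4% of all genes). The median log2 change was -1.25. E2F1 was lower in the mean of log2 values and 1.07-fold higher in the mean of normalised read counts. Without LR library 2 the median was -0.74, and 28 genes fell by adjusted p (30.3% of all genes). In that fit 4 genes, namely CDC6, POLA1, CLSPN and TYMS, were called, close to the share over all genes (7.45%). Only 44 genes then kept a negative sign, and the values turned to 0.04 for CDC7, 0.04 for LIG1, 0.26 for DTL, 0.51 for E2F1 and 0.21 for E2F8. By edgeR and by DESeq2 48 genes were lower in sign.

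**Figure D3:**
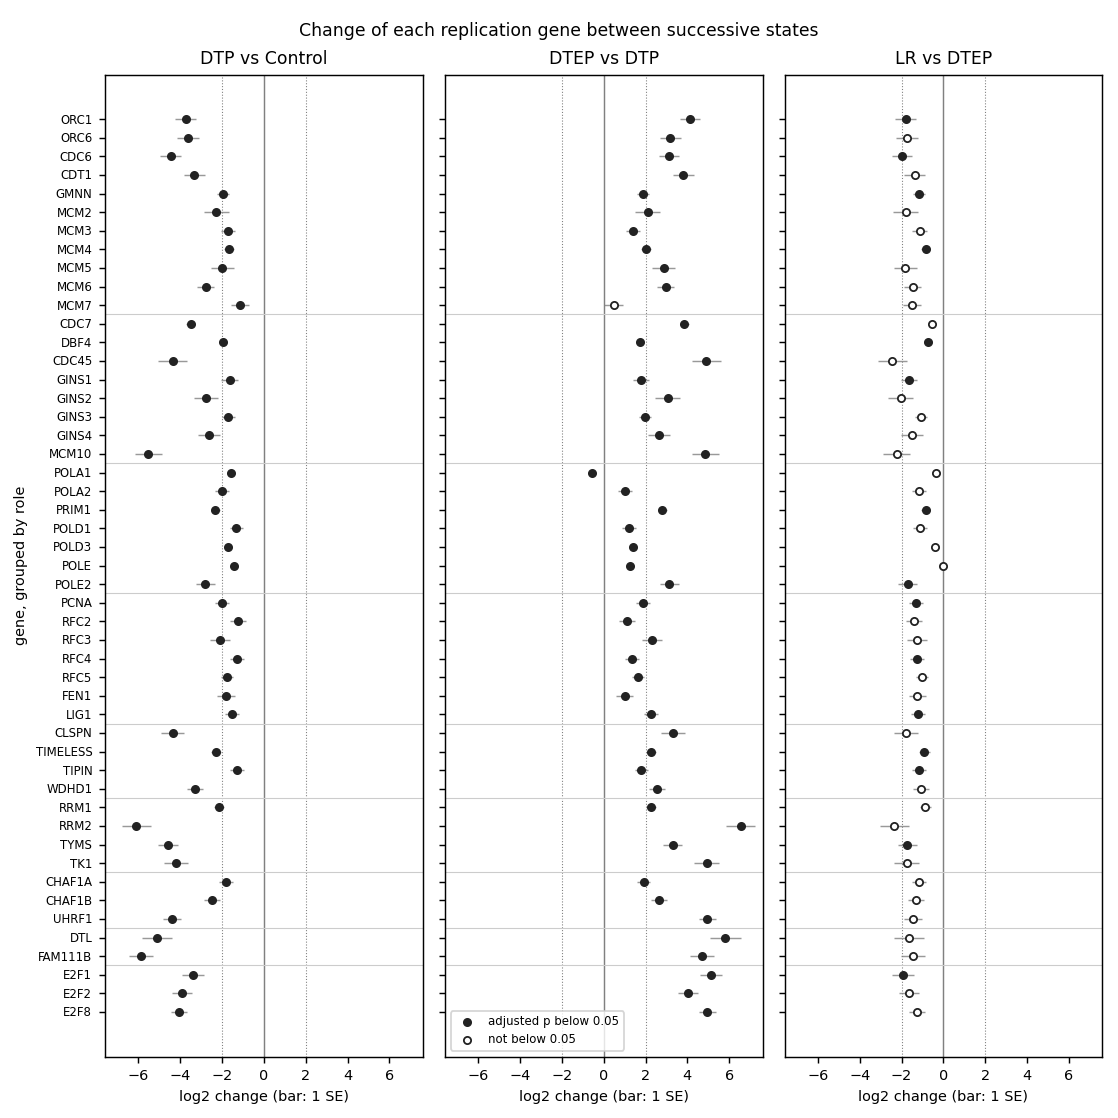
Log2 change of each of the 49 genes in DTP against Control, DTEP against DTP and LR against DTEP, with bars of 1 SE, filled circles at an adjusted p below 0.05 and dotted lines at -2 and 2. All 49 circles are filled on the negative side in the first panel, 47 on the positive side in the second, and 15 on the negative side in the third.

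Among the 11 origin licensing genes, 7 were called lower in DTP cells (3.9% of all genes tested) and 8 were called higher in DTEP cells (8.13%). CDC6 loads the helicase ring onto origins. It stood at 122.98, 125 and 128 normalised read counts in Control libraries 1 to 3, 4.02, 4.74 and 5.47 in DTP, 61.0, 73.4 and 26.4 in DTEP and 14.7, 4.21 and 24.6 in LR. The DTP, DTEP and LR libraries all lay below Control, and DTEP did not overlap LR. The log2 changes were -4.47 (SE 0.49, adjusted p = 2.32e-05) for DTP against Control and 3.14 (SE 0.49, adjusted p = 0.000114) for DTEP against DTP. CDC6 rose again without reaching its Control level, with a log2 change of -1.33 (SE 0.49, adjusted p = 0.0336) for DTEP against Control, which was -0.89 (adjusted p = 0.121) without DTEP library 3. Against Control it had the lowest LR level of the set, at -3.30 (SE 0.49, adjusted p = 8.99e-05).

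ORC1 and ORC6, the subunits of the origin recognition complex in the set, fell by similar amounts in DTP cells, with log2 changes of -3.75 and -3.63. ORC1 was at 39.3, 38.1 and 38.5 in Control, 1.72, 2.32 and 1.84 in DTP, 53.3, 55.3 and 43.6 in DTEP and 18.0, 3.98 and 32.6 in LR libraries. CDT1, which brings the helicase to the origin, was at 33.6, 31.0 and 32.6 in Control and 2.35, 2.86 and 1.79 in DTP libraries. Its inhibitor GMNN (geminin) fell less, with a log2 change of -1.98 beside -3.34 for CDT1. The ratio of CDT1 to GMNN reads was 0.712, 0.653 and 0.634 in Control and 0.216, 0.224 and 0.157 in DTP libraries. In DTEP libraries it was 0.560, 0.634 and 2.64, so that library 3 stood apart, being the highest DTEP library for CDT1 (70.4) and the lowest for GMNN (26.7).

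The helicase ring is built of MCM2 to MCM7 in equal numbers. All 6 fell in DTP cells, MCM6 most with a log2 change of -2.79 (SE 0.42, adjusted p = 0.000185), and MCM7 least. MCM7 was at 616, 596 and 633 in Control, 299, 283 and 251 in DTP, 531, 499 and 214 in DTEP and 163, 58.6 and 255 in LR libraries. Its DTEP libraries 1 and 2 lay above DTP and library 3 below, and LR library 2 was lower than any DTP library. The difference between LR and Control for MCM7 was -2.18 (SE 0.45, adjusted p = 0.00109), beside -1.15 for DTP and Control, and the difference between those values was not tested. MCM5 behaved otherwise, at 102, 98.2 and 106 in Control, 26.7, 26.7 and 21.3 in DTP, 207, 247 and 130.1 in DTEP and 78.6, 14.9 and 119 in LR libraries. All its DTEP libraries were above Control, although the difference did not pass the test, at 0.87 (SE 0.55, adjusted p = 0.193). Per kilobase of the canonical transcript, MCM7 had the highest level of the 6 in every group, at 249 ± 7.43 in Control (SD, n = 3) and 168 ± 70.7 in DTEP. MCM5 had the lowest, at 29.6 ± 1.15 and 56.3 ± 17.2. The ratio of the highest to the lowest subunit, per kilobase, was 8.43 in Control cells and 15.6 in DTP cells, and it was 2.99 and 3.15 in DTEP and LR. The ratio of MCM7 to MCM6 reads was 2.68, 2.53 and 2.63 in Control, 9.39, 8.51 and 7.27 in DTP, 1.55, 1.23 and 1.57 in DTEP and 1.69, 1.14 and 1.47 in LR libraries, and the DTEP and LR libraries lay below both earlier groups.

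Of the 8 genes of helicase activation and firing, 5 were called lower in DTP cells (3.9% of all genes tested). On regrowth 5 were called higher (8.13%). MCM10, which joins the active helicase, fell most, from 90.0, 90.4 and 88.8 in Control to 0.678, 1.04 and 1.21 in DTP libraries, the last being 13, 21 and 21 reads. It was back at 68.0, 92.1 and 27.5 in DTEP and at 17.9, 2.27 and 27.1 in LR libraries. The log2 changes of MCM10 were -5.53 (SE 0.64, adjusted p = 3.49e-05) and 4.86 (SE 0.64, adjusted p = 3.12e-05), and the ratio of group means was 92.1-fold between Control and DTP. CDC45, the subunit that completes the active helicase, was at 67.0, 69.0 and 66.9 in Control, 2.04, 3.11 and 1.96 in DTP, 137, 145 and 49.2 in DTEP and 28.2, 3.32 and 48.8 in LR libraries. Its DTEP libraries 1 and 2 were above Control and library 3 below.

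GINS1, one of the 4 subunits of the GINS complex, fell least in this role, from 88.1, 86.9 and 80.7 in Control to 24.6, 26.0 and 29.3 in DTP libraries, with a log2 change of -1.65 (SE 0.39, adjusted p = 0.00391). It was at 100.3, 135 and 60.6 in DTEP and 39.2, 13.2 and 48.1 in LR libraries, without overlap between the groups. The remaining GINS genes had log2 changes from -2.78 (GINS2) to -1.71 (GINS3) in DTP cells. CDC7, the kinase that fires licensed origins, was at 49.9, 49.5 and 43.3 in Control, 2.97, 3.16 and 3.74 in DTP, 57.7, 74.0 and 53.8 in DTEP and 50.7, 30.3 and 47.04 in LR libraries. The LR libraries of CDC7 overlapped Control, and the difference was -0.18 (SE 0.20, adjusted p = 0.445). It was the least changed gene of the set in that comparison, with a negative sign that turned to 0.04 when LR library 2 was left out. Its regulatory subunit DBF4 varied least between LR libraries, at 25.7, 22.6 and 25.7, with 50.2, 48.3 and 46.7 in Control.

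Polymerase alpha with primase lays down the primers from which each strand is extended, and its subunits took different courses. POLA1, the catalytic subunit, was at 227, 226 and 217 in Control, 63.8, 76.2 and 85.2 in DTP, 56.5, 54.9 and 40.5 in DTEP and 37.8, 29.996 and 52.6 in LR libraries. Its DTEP and LR libraries all lay below its DTP libraries. The log2 change was -2.13 (SE 0.20, adjusted p = 2.25e-06) in DTEP and -2.48 (SE 0.20, adjusted p = 5.12e-07) in LR cells against Control, the latter being -2.30 (adjusted p = 2.79e-06) without LR library 2. POLA2, the subunit that tethers it, was at 149, 148 and 156 in Control, 36.1, 38.9 and 34.8 in DTP, 94.6, 97.1 and 44.9 in DTEP and 33.2, 19.2 and 54.7 in LR libraries, so that it rose part of the way. PRIM1, the primase that makes the RNA primer, was at 46.8, 45.1 and 40.0 in Control, 6.89, 8.29 and 8.70 in DTP, 54.3, 59.2 and 71.7 in DTEP and 37.7, 23.3 and 44.2 in LR libraries. Every DTEP library of PRIM1 was above Control, a difference of 0.47 (SE 0.22, adjusted p = 0.0772). The number of POLA1 reads per PRIM1 read was 4.84, 5.01 and 5.44 in Control, 9.26, 9.18 and 9.79 in DTP, 1.04, 0.928 and 0.564 in DTEP and 1.00, 1.29 and 1.19 in LR libraries. Its DTEP and LR libraries, LR library 2 and DTEP library 3 included, were all under the lowest Control library.

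Polymerase epsilon copies the leading strand and polymerase delta the lagging strand. POLE, the catalytic subunit of epsilon, was at 372, 362 and 390.4 in Control, 140.3, 131 and 145 in DTP, 234, 364 and 443 in DTEP and 329, 284 and 378 in LR libraries. Its LR and DTEP libraries overlapped Control, and between LR and DTEP the log2 change was -0.03 (SE 0.20), the smallest of the 49, with a sign that turned to 0.01 under median-of-ratios scaling. POLE2, a smaller subunit of the same enzyme, fell from 27.7, 26.7 and 25.6 to 2.77, 3.16 and 2.99 in DTP, and stood at 38.4, 43.1 and 23.9 in DTEP and 14.1, 3.21 and 18.4 in LR libraries. The log2 change of POLE2 between LR and DTEP was -1.71 (SE 0.44, adjusted p = 0.0413). POLE2 reads per POLE read went from 0.0744, 0.0738 and 0.0656 in Control to 0.0197, 0.0242 and 0.0206 in DTP, 0.164, 0.118 and 0.0538 in DTEP and 0.0428, 0.0113 and 0.0486 in LR libraries. POLD1, the catalytic subunit of delta, fell least in this role, at 41.9, 40.0 and 46.6 in Control and 20.9, 15.4 and 14.1 in DTP libraries, a log2 change of -1.31 (SE 0.33, adjusted p = 0.00549). POLD3, an accessory subunit of delta, was at 105, 111 and 105 in Control, 30.3, 31.9 and 34.1 in DTP, 82.7, 91.6 and 85.3 in DTEP and 65.5, 48.5 and 86.2 in LR libraries, the narrowest DTEP range of the set.

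**Figure D4:**
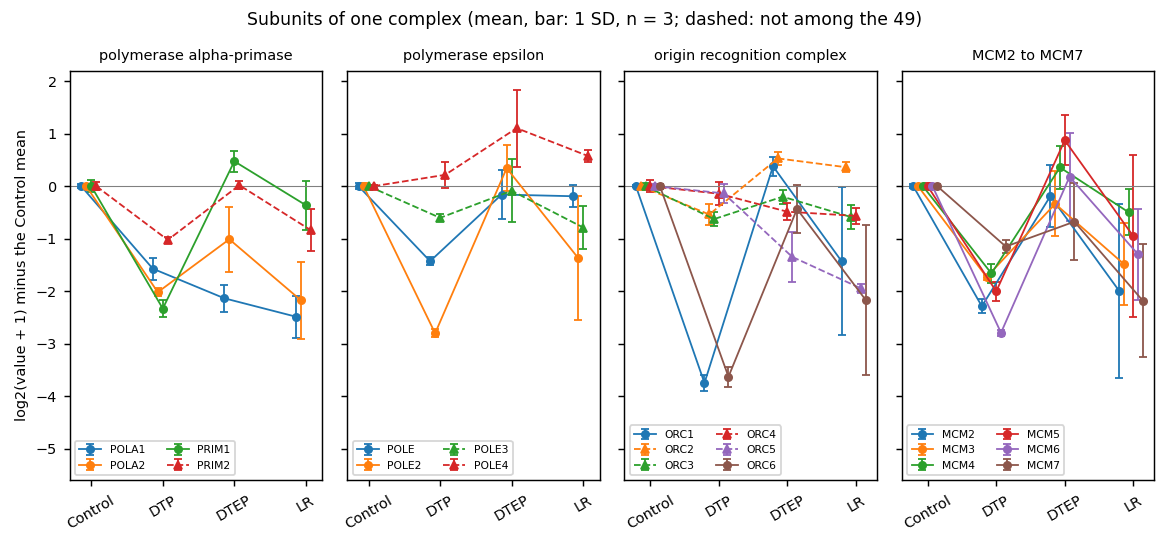
Subunits of polymerase alpha-primase, polymerase epsilon, the origin recognition complex and the MCM2 to MCM7 ring in the 4 groups, as log2(value + 1) minus the Control mean, with bars of 1 SD (n = 3 libraries) and dashed lines for subunits that are not among the 49. POLA1 stays low in DTEP while PRIM1 returns, and the dashed lines of ORC2 to ORC5 lie far above ORC1 and ORC6 in DTP.

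The sliding clamp PCNA, its loader RFC, the flap nuclease FEN1 and the ligase LIG1 finish the lagging strand. All 7 fell in DTP cells by adjusted p (28.8% of all genes tested), 2 of them past a log2 change of 2 (3.9%). All 7 rose in DTEP cells by adjusted p (35.7%), 2 past that limit (8.13%). PCNA was at 280.1, 279 and 286 in Control, 68.3, 67.4 and 70.2 in DTP, 335, 327 and 149 in DTEP and 109, 59.1 and 155 in LR libraries. RFC3 fell most in this role, from 80.2, 75.3 and 65.1 to 13.2, 16.6 and 19.98, a log2 change of -2.10 (SE 0.48, adjusted p = 0.00316). RFC2 fell least, from 111, 115 and 118 to 48.95, 48.7 and 45.5, a log2 change of -1.24 (SE 0.39, adjusted p = 0.0187). FEN1 came back in part, at 171, 169 and 169 in Control, 49.7, 49.6 and 43.5 in DTP, 149, 130.1 and 45.9 in DTEP and 42.8, 22.4 and 64.3 in LR libraries. DTEP library 3 of FEN1 lay within the DTP range, while libraries 1 and 2 lay between DTP and Control. LIG1, which seals the fragments, was at 116, 116 and 120.0 in Control, 41.8, 42.3 and 35.8 in DTP, 180.3, 199 and 209 in DTEP and 102, 40.1 and 144 in LR libraries. All 3 DTEP libraries of LIG1 were above Control, a difference of 0.73 (SE 0.33, adjusted p = 0.0777).

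Of the 4 fork protection genes, 3 were called lower in DTP cells (3.9% of all genes tested) and 3 were called higher on regrowth (8.13%). CLSPN (claspin), which relays stress at the fork to the checkpoint kinase, fell most, from 86.1, 86.1 and 83.3 in Control to 2.66, 3.21 and 3.69 in DTP libraries. It stood at 46.7, 63.5 and 22.3 in DTEP and 14.1, 2.93 and 28.5 in LR libraries, all below Control, and the log2 change of LR against Control was -2.84 (SE 0.57, adjusted p = 0.000967). TIPIN, which binds TIMELESS at the fork, fell least, from 17.4, 18.2 and 15.4 to 5.64, 6.47 and 6.91, and stood at 33.5, 31.1 and 13.6 in DTEP and 9.72, 7.19 and 15.1 in LR libraries. The log2 change of TIPIN was -1.29 (SE 0.32, adjusted p = 0.00475) in DTP cells. TIMELESS and WDHD1, a polymerase alpha adaptor, had log2 changes of -2.29 and -3.30 there.

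All 4 genes of nucleotide synthesis were called lower in DTP cells (3.9% of all genes tested), and all 4 were called higher on regrowth (8.13%). Ribonucleotide reductase makes deoxynucleotides from a large subunit (RRM1) and a small one (RRM2). RRM2 was at 282, 283 and 273 in Control, 2.30, 4.10 and 2.94 in DTP, 562, 549 and 175 in DTEP and 122.6, 16.9 and 180.4 in LR libraries. DTEP libraries 1 and 2 held more RRM2 than any Control library and library 3 less, and the DTEP difference from Control was 0.44 (SE 0.69, adjusted p = 0.613), or 0.99 (adjusted p = 0.242) without DTEP library 3. In ratios of means RRM2 was 89.9-fold lower in DTP than in Control and 138-fold higher in DTEP than in DTP. RRM1 moved less, at 192, 193 and 194 in Control, 39.1, 41.0 and 49.9 in DTP, 244, 241 and 162 in DTEP and 116, 79.2 and 171 in LR libraries. RRM2 reads per RRM1 read were 1.47, 1.47 and 1.41 in Control, 0.0587, 0.10 and 0.0589 in DTP, 2.31, 2.27 and 1.08 in DTEP and 1.06, 0.213 and 1.06 in LR libraries.

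TYMS (thymidylate synthase), which makes dTMP from dUMP, was at 207, 205 and 220.0 in Control, 5.74, 8.39 and 9.56 in DTP, 111, 91.3 and 59.6 in DTEP and 32.4, 9.02 and 50.9 in LR libraries. Every DTEP and LR library was below Control, with log2 changes of -1.31 (SE 0.46, adjusted p = 0.0291) and -3.03 (SE 0.46, adjusted p = 0.00012). Without DTEP library 3 the former was -1.06 (adjusted p = 0.0868) and no longer passed. TK1 (thymidine kinase 1), which makes dTMP from salvaged thymidine, was at 115, 104 and 108 in Control, 5.11, 6.17 and 3.74 in DTP, 209, 213 and 127 in DTEP and 88.5, 13.2 and 117 in LR libraries. The DTEP libraries of TK1 were all above Control, and the difference was 0.71 (SE 0.59, adjusted p = 0.321). All DTEP libraries thus lay below Control for TYMS, as for 32.5% of all genes tested, and above for TK1, as for 33.2%. A difference between these enzymes was not tested.

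**Figure D5:**
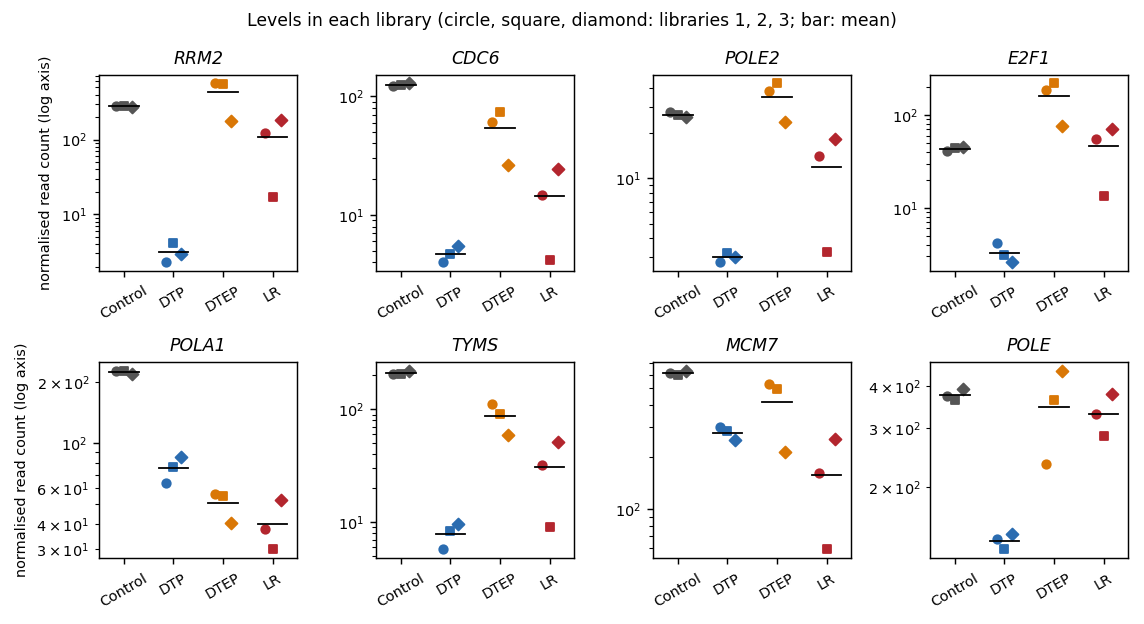
Normalised read counts of 8 genes in each library, on log axes, with circles, squares and diamonds for libraries 1, 2 and 3 and bars for group means. RRM2, POLE2 and E2F1 drop and return, CDC6 and TYMS rise again in DTEP with every library below Control, POLA1 drops and stays low, and LR library 2 is the lowest LR point in all 8 panels.

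In chromatin copying, UHRF1, which guides DNA methylation onto new strands, was close to the limit of counting in DTP cells, at 2, 10 and 4 reads in libraries 1 to 3. Its levels were 28.0, 23.8 and 26.0 in Control, 0.104, 0.494 and 0.230 in DTP, 36.7, 58.4 and 26.3 in DTEP and 18.1, 5.31 and 23.5 in LR libraries, and the log2 change in DTP was -4.41 (SE 0.43, adjusted p = 9.51e-06). CHAF1A and CHAF1B, subunits of the factor that places histones on new DNA, fell with log2 changes of -1.81 and -2.49. CHAF1A was at 67.7, 65.3 and 73.0 in Control, 19.8, 18.0 and 18.6 in DTP, 78.7, 94.8 and 52.5 in DTEP and 36.2, 17.2 and 53.1 in LR libraries.

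DTL, which marks CDT1 for destruction in S phase, and FAM111B, an S phase protease, were among the most reduced genes in DTP cells. DTL was at 90.8, 95.2 and 89.2 in Control, 1.25, 1.83 and 2.02 in DTP, 143, 189.8 and 123.5 in DTEP and 89.1, 7.97 and 136 in LR libraries. FAM111B was at 246, 237 and 233 in Control, 2.35, 2.81 and 4.15 in DTP, 108, 122 and 84.9 in DTEP and 54.4, 9.85 and 93.1 in LR libraries. The log2 changes of DTL and FAM111B in DTP cells were -5.11 (SE 0.73, adjusted p = 0.000136) and -5.89 (SE 0.57, adjusted p = 9.44e-06). DTL had the largest gap between LR libraries, 11.2-fold between libraries 1 and 2 and 17.0-fold between libraries 3 and 2. All DTEP libraries of DTL lay above Control (33.2% of all genes tested) and all those of FAM111B below (32.5%). Neither difference passed the adjusted p.

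All 3 E2F factors of the set were called lower in DTP cells (3.9% of all genes tested). On regrowth all 3 were called higher (8.13%). E2F1, an activator of this gene group, was at 40.7, 44.1 and 44.7 in Control, 4.12, 3.06 and 2.59 in DTP, 184, 219 and 76.4 in DTEP and 54.8, 13.2 and 70.1 in LR libraries. Its DTEP libraries, library 3 included, were all above every other group, and the difference from Control was 1.73 (SE 0.52, adjusted p = 0.0126), or 3.70-fold in group means. That difference passed the adjusted p in 22 of 23 alternatives. Without DTEP library 2 it was past the threshold no longer, at an adjusted p of 0.0563. Without DTEP library 3 it was 2.19 (adjusted p = 0.00272). E2F1 in LR cells overlapped Control, and the log2 change between LR and DTEP was -1.94 (SE 0.52, adjusted p = 0.0459). E2F8, a repressor that is itself an E2F target, was at 24.7, 24.3 and 24.1 in Control, 0.365, 0.494 and 0.749 in DTP (7, 10 and 13 reads), 35.6, 50.7 and 55.5 in DTEP and 23.4, 7.86 and 34.3 in LR libraries. E2F8 was above Control in all 3 DTEP libraries, with 0.90 (SE 0.39, adjusted p = 0.0652). E2F2, an activator like E2F1, was at 80.9, 82.6 and 81.7 in Control, 4.96, 4.34 and 4.204 in DTP, 89.8, 111 and 67.9 in DTEP and 39.8, 8.97 and 55.1 in LR libraries.

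Subunits and paralogs of the same complexes outside the 49 were counted beside them. Of these 14 genes, 6 fell in DTP cells by adjusted p (28.8% of all genes tested) and 1 rose (25.2%). The helicase paralog MCM8 alone was called lower past a log2 change of 2, where 3.9% of all genes were. Their median log2 change was -0.46, beside -2.29 for the 49. ORC2, ORC3, ORC4 and ORC5, the other subunits of the origin recognition complex, had log2 changes of -0.54, -0.63, -0.14 and -0.14 in DTP cells, where ORC1 and ORC6 were at -3.75 and -3.63. ORC1 reads per ORC2 read were 0.697, 0.646 and 0.679 in Control, 0.0483, 0.0639 and 0.0398 in DTP, 0.625, 0.618 and 0.580 in DTEP and 0.237, 0.0581 and 0.421 in LR libraries. ORC5 took another course, at 51.1, 50.8 and 48.3 in Control, 39.6, 51.6 and 45.8 in DTP, 24.6, 21.95 and 12.7 in DTEP and 12.5, 11.4 and 12.9 in LR libraries, where it fell by 1.21 (SE 0.21, adjusted p = 0.000278) on the log2 scale between DTP and DTEP.

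POLD4, the smallest subunit of polymerase delta, rose in DTP cells, from 32.98, 32.8 and 33.4 in Control to 84.4, 77.2 and 62.2 in DTP libraries, a log2 change of 1.14 (SE 0.17, adjusted p = 0.00023). POLD2, its bridging subunit, was at 223, 213 and 231 in Control and 247, 234 and 190.3 in DTP libraries, and the log2 change was 0.00 (SE 0.41). The small subunits of polymerase epsilon, POLE3 and POLE4, had DTP values of -0.60 and 0.22 that did not pass the test. PRIM2 and RFC1, the large subunits of primase and of the clamp loader, fell with log2 changes of -1.02 and -1.04. RRM2B, the p53-regulated small subunit of ribonucleotide reductase, was at 82.9, 85.7 and 72.6 in Control, 20.7, 23.6 and 34.6 in DTP, 43.0, 69.3 and 85.4 in DTEP and 109.8, 89.4 and 76.1 in LR libraries. RRM2 reads per RRM2B read were 3.41, 3.31 and 3.75 in Control, 0.111, 0.174 and 0.0850 in DTP, 13.1, 7.92 and 2.06 in DTEP and 1.12, 0.189 and 2.37 in LR libraries. TK2, the mitochondrial thymidine kinase, was at 28.8, 29.4 and 31.3 in Control and 23.9, 26.2 and 23.9 in DTP libraries and did not pass the test, with a log2 change of -0.26 beside -4.21 for TK1. MCM9 was at -0.37, also without passing.

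Over 27 other replication and nucleotide genes, 22 fell in DTP cells by adjusted p (28.8% of all genes) and 8 were called (3.9%). Between DTP and DTEP cells 24 rose (35.7% of all genes) and 12 were called (8.13%). TOP2A, the topoisomerase that untangles copied chromosomes, fell most, at -5.14 (SE 0.26, adjusted p = 9.17e-08), and TICRR, which helps fire origins, was at -4.71 (SE 0.37, adjusted p = 2.02e-06). DUT, which removes dUTP, was at 64.3, 64.3 and 59.9 in Control, 15.1, 14.8 and 16.5 in DTP, 287, 265 and 129.7 in DTEP and 116, 56.4 and 112 in LR libraries, and its DTEP level exceeded Control, with a log2 change of 1.76 (SE 0.30, adjusted p = 0.000341). RPA2, a subunit of the protein that coats single-stranded DNA, had a log2 change of -0.01 in DTP cells, while RPA1 fell by 0.85, and RPA3 was at -0.21 without passing. TOP1, the other main topoisomerase, fell in DTP by 1.12 on the log2 scale and exceeded Control in DTEP and LR cells, with log2 changes of 1.11 and 1.38 past the adjusted p (30.2% of all genes in LR).

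A further list held 6 genes, namely the cyclins CCNE1, CCNE2 and CCNA2, the kinase CDK2, the phosphatase CDC25A, and SKP2. All 6 fell in DTP cells by adjusted p (28.8% of all genes). Of them 3 were called, CCNE2, CCNA2 and CDC25A (3.9% of all genes). CCNA2 (cyclin A2) was at 69.8, 73.8 and 57.7 in Control, 1.04, 1.63 and 2.19 in DTP, 120.1, 168 and 81.3 in DTEP and 34.1, 22.9 and 43.8 in LR libraries. It fell between DTEP and LR as well, at -1.83 (SE 0.29, adjusted p = 0.00688). CCNE1 (cyclin E1) was at 17.2, 18.5 and 19.2 in Control, 5.95, 5.63 and 5.64 in DTP, 13.1, 13.2 and 4.38 in DTEP and 2.11, 1.55 and 5.47 in LR libraries, and the difference between DTP and DTEP did not pass the test. Among 10 further E2F and RB family genes, 5 fell and 1 rose in DTP cells by adjusted p (28.8% and 25.2% of all genes). E2F7, a repressor paired with E2F8, fell from 25.9, 27.9 and 22.5 to 0.261, 0.296 and 0.346, a log2 change of -4.34 (SE 0.49, adjusted p = 3.06e-05). E2F4, a factor of arrested cells, rose, at 0.46 (SE 0.16, adjusted p = 0.03). RBL1 (p107), a relative of the retinoblastoma protein, was at 8.28, 8.15 and 7.87 in Control, 1.98, 1.33 and 2.42 in DTP, 30.7, 42.2 and 42.4 in DTEP and 25.3, 8.91 and 39.6 in LR libraries, and its DTEP level was called higher than Control (4.43% of all genes), at 2.10 (SE 0.40, adjusted p = 0.000654). RB1 itself was at 98.1, 97.8 and 84.4 in Control, 14.9, 22.4 and 33.1 in DTP, 80.2, 132 and 153 in DTEP and 197, 137 and 153 in LR libraries, and was called lower in DTP cells, at -2.01 (SE 0.28, adjusted p = 0.000117). TFDP2, a partner of E2F factors, had a log2 change of 0.20 in DTP cells that did not pass, and fell in DTEP cells against DTP, at -1.92 (SE 0.28, adjusted p = 7.05e-05).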

How the data were processed

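Messenger RNA of 12 BT474 libraries was sequenced after preparation with Illumina's TruSeq Stranded mRNA kit, aligned with Rsubread to hg38 and counted on RefSeq genes, per the study's methods. The submitters' processing notes name bcl2fastq and edgeR. Counting used the package's default settings, which ignore strand, so reads of a gene and of a gene overlapping it on the opposite strand cannot be told apart. The table holds signal values that the authors deposited as CPM on library sizes scaled by edgeR's TMM method, here called normalised read counts. Whole reads were recovered from them (199680 of 199680 values above 0, within 1e-06), and edgeR recomputed the table from these reads to a relative difference of 4.97e-15. Of 26485 listed genes, 1016 had no Entrez ID and 6104 no read.

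Groups were taken from the sample titles. The test was limma 3.58.1 (R 4.3.3) with a trended prior on log2(value + 1), over all 12 libraries without covariates, two-sided, with Benjamini-Hochberg adjustment over the 13794 genes that reached a value of 1 in 3 or more libraries. Calls needed an adjusted p under 0.05 together with a log2 change beyond 2 in either direction. The pseudocount understates changes of low genes, and folds are ratios of group means. Depth of 16383363 to 25030482 assigned reads puts the level of 3 reads at 0.124 to 0.173, and such floors cover counting error only. Alternatives were pseudocounts of 0.1 and 0.5, no filter, a mean filter of 5, no trend, the 6 compared libraries only, median-of-ratios scaling, a replicate block, edgeR 4.0.16 and DESeq2 1.42.0 on the recovered reads, other thresholds, and leaving out each library. Leaving out DTEP library 3 with LR library 2 was added after seeing the data. The limma step was tested on data simulated for the comparison of DTP with Control, over 12993 genes. There it called 195 of 200 genes changed 8-fold and 0 of the others. The check gave no result for comparisons with DTEP or LR cells, whose libraries differed more from each other for the set.

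The members and lists were chosen with earlier results of these data known. Genes were named by a rule, which took the largest and smallest change between DTP and Control in each role, all members called between LR and DTEP, the 3 highest and 3 lowest against Control in DTEP and LR, members not lower in DTP or not higher in DTEP, E2F1 and CDC6, co-subunits, and called genes of the lists. Other genes given with values were chosen after their values were seen. Lengths per kilobase were those of the canonical transcript, and promoters were RefSeq windows on GRCh38.p14. No protein sequence was used here.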

Additional observations from a re-analysis of the deposited data

Results flagged for a closer look

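DTEP and LR cells were each compared with Control. For 6 of the named genes, limma's test between LR and DTEP passed an adjusted p below 0.05 in the fit of all 12 libraries. That fit pooled the spread of all groups, although Control and DTP libraries varied less than DTEP and LR libraries for the set. The test therefore does not settle whether the differences from Control were unequal. The log2 change between LR and DTEP was -1.97 for CDC6, -1.64 for GINS1, -1.71 for POLE2, -1.17 for TIPIN, -1.72 for TYMS and -1.94 for E2F1. For CDC6, GINS1, POLE2, TYMS and E2F1 all 3 LR libraries lay below all 3 DTEP libraries, whereas for TIPIN LR library 3 (15.1) lay above DTEP library 3 (13.6). Without LR library 2 the changes were -1.33, -1.09, -1.04, -0.95, -1.04 and -1.22 in the same order of genes. The adjusted p of all 6 was 0.301 when only the 6 compared libraries were fitted. The sign was negative for each of the 6 under all 23 alternatives, and the adjusted p was below 0.05 under 11 of them for GINS1 and under 10 for the others.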

How the results depend on the processing

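The direction of the set between DTP and Control and between DTP and DTEP did not turn under any alternative run. With an absolute log2 limit of 1, 49 genes were called lower in DTP cells and 47 higher in DTEP cells, and by adjusted p alone the counts were again 49 and 47, in place of 31 and 31. Between LR and DTEP, 1 gene was called with a pseudocount of 0.1, 1 with 0.5 and 1 by DESeq2, 11 with a log2 limit of 1 and 15 by adjusted p alone, in place of 0, and leaving out single libraries gave 0 to 17. For DTEP above Control 1 gene was called with a log2 limit of 1 and 1 by adjusted p alone, and 0 to 1 without single libraries. For LR below Control 30 and 35 were called in place of 10 under those 2 settings, and 4 to 17 without single libraries, the lowest without LR library 2 and the highest without LR library 3. For the fits without LR library 3 the shares over all genes were not counted. Causes were not tested beyond what each alternative leaves out. Signs turned for the genes that follow. The value of POLE, LR vs DTEP, was 0.00727 with median-of-ratios scaling and -0.29 to 0.27 with libraries left out, and that of E2F1, LR vs Control, was 0.0928 by edgeR, 0.0640 by DESeq2 and -0.65 to 0.51 with libraries left out. Leaving out libraries moved DTEP against Control from -0.13 to 0.44 for GINS1, -0.32 to 0.0627 for POLD1, -0.40 to 0.27 for RFC2, -0.0920 to 0.33 for CHAF1A and -0.36 to 0.10 for POLE. It moved LR against Control from -1.71 to 0.26 for DTL, -0.79 to 0.21 for E2F8 and -0.32 to 0.0403 for CDC7. Median-of-ratios scaling shifted the median of all genes by -0.10 between DTP and DTEP.

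Replicate numbers did not pair the libraries for most groups, since only 2 of 18 same-numbered pairs had a correlation of deviations over 0.1 (range -0.44 to 0.36). Both pairs were of DTP with DTEP, at 0.36 for replicate 1 and 0.34 for replicate 3. In 3 of the 18 comparisons a library correlated best with its own number. With the replicate block the counts called were 31, 31, 0, 0 and 10 for DTP against Control, DTEP against DTP, LR against DTEP, DTEP above Control and LR against Control, and 0 in place of 15 passed the adjusted p between LR and DTEP. The 3-read floor of 0.124 to 0.173 lies near the DTP levels of UHRF1, so that its fold is loose.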
